A study of Mus musculus with 8 samples.

Results

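The endoplasmic reticulum (ER) folds proteins that are secreted or placed in membranes, and 10 messages of its folding and stress machinery are described here: Hspa5, Hsp90b1, Calr, Canx, Pdia3, Pdia4, Pdia6, Xbp1, Atf4 and Atf6. They were chosen by gene symbol, as known ER chaperones and unfolded protein response genes, and not by their values. The deposited table holds 21643 gene symbols, all 10 genes were found, and all 10 passed the low-count filter. Hspa5 had 2 rows and Canx had 3, since the table counts RefSeq transcripts, and the row of highest total count stands for each gene.

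When unfolded proteins build up in the ER, the chaperone BiP, the product of Hspa5, is drawn away from stress sensors in the ER membrane. ATF6 is then cut to release a transcription factor, IRE1 splices the Xbp1 message so that it encodes an active factor, and PERK phosphorylates eIF2α, which lowers translation in general while the Atf4 message is translated more through its upstream reading frames. ATF6 and XBP1 raise the messages of ER chaperones, and ATF4 those of amino acid and redox genes. In neurons, eIF2α phosphorylation and ATF4 are known for their bearing on long-lasting memory. The counts are of polyribosome-associated mRNA, so ATF6 cleavage, Xbp1 splicing and eIF2α phosphorylation were not measured.

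Polyribosome-associated mRNA was sequenced from C57Bl/6 mice aged 7 to 9 weeks. The groups were contextual fear conditioning, in which a chamber is paired with foot shock, and exposure to the context alone as the control, each taken at 6 h or 1 h, from tissue labelled hippocampus or frontal cortex. Each of the 8 combinations has 1 library. The labels' protocol describes prefrontal cortex alone, gives 4 control and 4 conditioned mice, and does not say how animals were divided over libraries, so a p-value here speaks of the spread among these libraries, which can be technical in part. All groups share the strain, and no transgene, deletion or drug is named. No preparation batch is listed for the libraries, so time and a batch that ran with it cannot be told apart. In bulk tissue, fewer cells of a type and less RNA per cell cannot be told apart. Nor can less message and a smaller part of it on polyribosomes, since the counts are of polyribosome-associated mRNA alone.

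Total counts lay between 2370973 and 5296986 per library, and the 10 genes together held 0.0762% to 0.107% of them. The conditioned 1 h libraries labelled hippocampus and cortex differed by about as much as sampling noise alone gives: the variance between their counts was 1.06 times that expected from counting over 11296 genes, while the next closest pair of libraries stood at 4.85. They were summed and counted as 1 sample, which left 7 samples, and nothing about tissue was read from them. The hippocampus control 6 h library stood apart. It was the shallowest, its TMM scaling factor was 0.762, and Kif5c, a kinesin motor, took 8.01% of its counts. Kif5c took 0.545% in the hippocampus conditioned 6 h library and 0.0382% to 0.0711% in the remaining libraries. Both hippocampus 6 h libraries were thus above the rest in Kif5c. Of the tissue markers, all 8 hippocampal excitatory neuron genes were higher in hippocampus than cortex libraries, and 6 of 8 cortical markers were lower (edgeR, adjusted over all rows). The summed level of the 8 hippocampal markers was 321 and 323 CPM in the conditioned 1 h pair, between the 598 to 1077 CPM of the hippocampus libraries and the 81.6 to 99.8 CPM of the cortex libraries.

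Levels below are CPM, the counts scaled to the library total with TMM factors, and a level divided by transcript length is called CPM per kilobase. Changes are log2 ratios from edgeR's quasi-likelihood test over 16990 rows with Benjamini-Hochberg adjustment, given with a standard error (SE), and a gene passed at an adjusted p under 0.05. The fit had 2 residual degrees of freedom.

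Sequence elements of this pathway are shown first, since 5 of the members carry one. The ER stress response element, CCAAT followed by any 9 bases and CCACG, is the site at which ATF6 acts together with the CCAAT-binding factor NF-Y. RefSeq promoter windows (GRCm38.p6, 250 bases before to 50 after the start) were matched by symbol for 9 of the 10 genes, all but Atf6. The element, read on both strands, was present in 5 of these 9 genes and in 37 of all 27025 genes with a window, or 0.137%. Those 5 were Hspa5, Hsp90b1, Calr, Canx and Pdia6, with a pair of elements in Hsp90b1. The element in each is given 5′ to 3′ on the gene's own strand, with the fixed bases in capitals. An element that reads CGTGG first and ATTGG last lies on the opposite strand:
Hspa5, chr2:34772025-34772043, plus strand: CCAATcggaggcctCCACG
Hsp90b1, chr10:86705638-86705656, minus strand: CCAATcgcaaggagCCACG
Hsp90b1, chr10:86705533-86705551, minus strand: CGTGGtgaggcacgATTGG
Calr, chr8:84847075-84847093, minus strand: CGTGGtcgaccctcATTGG
Canx, chr11:50325800-50325818, minus strand: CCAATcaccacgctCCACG
Pdia6, chr12:17266491-17266509, plus strand: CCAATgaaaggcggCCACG

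The 250 bases before the start of Hspa5 and Hsp90b1 are shown because these chaperones carry the same element and had different values across the libraries. The elements are in capitals. Counted from the start, the element lies at -65 to -47 in Hspa5 and the elements at -212 to -194 and -107 to -89 in Hsp90b1:
Hspa5, chr2:34771840-34772089, plus strand: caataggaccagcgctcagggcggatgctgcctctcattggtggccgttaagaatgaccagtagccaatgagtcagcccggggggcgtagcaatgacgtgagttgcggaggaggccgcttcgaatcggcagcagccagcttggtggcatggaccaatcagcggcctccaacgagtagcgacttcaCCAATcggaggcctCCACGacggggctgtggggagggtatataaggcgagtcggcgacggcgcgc
Hsp90b1, chr10:86705445-86705694, minus strand: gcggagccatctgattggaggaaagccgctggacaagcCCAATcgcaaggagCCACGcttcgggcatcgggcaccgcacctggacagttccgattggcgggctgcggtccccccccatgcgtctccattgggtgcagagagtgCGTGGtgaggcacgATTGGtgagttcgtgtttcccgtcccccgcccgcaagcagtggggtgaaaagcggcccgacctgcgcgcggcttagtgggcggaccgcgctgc

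The bare CCAAT box, which the element contains, was found in 8 of the 9 windows, Xbp1 being without it, and in 41.1% of all genes. The letters ATTGG, any base, CCACG (ER stress response element II) occurred in 0 of the 9 windows and 0.044% of all genes, TGACGTGG (a core to which ATF6 and XBP1 bind) in 0 of 9 and 0.714%, and TGATGNAA (the CCAAT/ATF response element read by ATF4) in 0 of 9 and 4.51%. These matches describe letters in a window and were not tested as binding sites. Of the 37 genes with the full element, 10 stood on the ER lists used here; beside the 5 members they were Creld2, Derl3, Dnajc3, Ero1b and Syvn1.

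The level of the members per transcript length, averaged over the 7 samples, followed the order Hsp90b1 (96.3 ± 46.7 CPM per kilobase, SD), Calr (54.2 ± 16.4), Canx (40.3 ± 11.3), Hspa5 (35.0 ± 9.62), Atf4 (31.5 ± 16.4), Pdia3 (25.8 ± 6.78), Xbp1 (15.2 ± 5.80), Atf6 (14.0 ± 4.44), Pdia6 (9.93 ± 2.27) and Pdia4 (8.12 ± 2.49). No gene was above its next neighbour in this order in all 7 samples. Pdia6 was above Pdia4 in 6 of 7, and Canx was above Hspa5 in only 3 of 7. Adjacent places in the order were therefore not held in every sample. Hsp90b1 and Calr changed places between the times. Calr was the higher in each 1 h library, at 54.7 to 69.6 CPM per kilobase against 42.0 to 55.2 for Hsp90b1. In each 6 h library Hsp90b1 was the higher, at 107 to 162 CPM per kilobase against 33.9 to 82.1 for Calr. Farther apart, the lowest library value among Hsp90b1, Calr, Canx and Hspa5 was 15.7 CPM per kilobase (Hspa5), above the highest of Pdia6 and Pdia4, 12.5 CPM per kilobase (Pdia6).

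**Figure D1:**
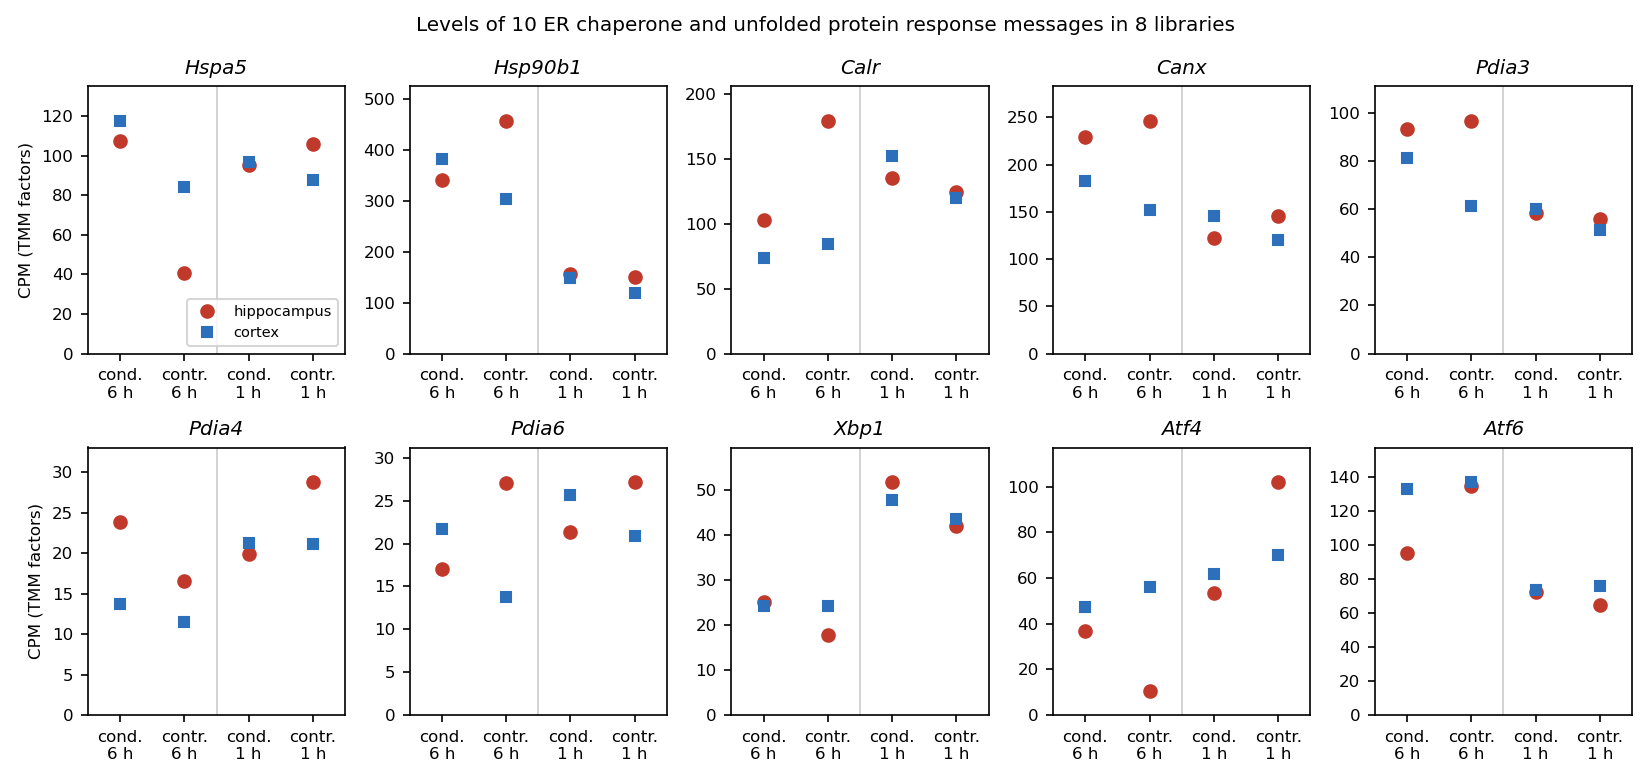
Level of each of the 10 messages in the 8 libraries (CPM with TMM factors), by tissue, training and time, each point being 1 library. Hsp90b1, Canx, Pdia3 and Atf6 are higher in every 6 h library than in every 1 h sample, as are 22% of all rows. Xbp1 is lower, as are 22.9% of all rows. The hippocampus control 6 h library is the lowest point for Hspa5, Xbp1 and Atf4.

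Hspa5 encodes BiP, the ER member of the Hsp70 family. Its level was 107.6 and 117.6 CPM in the hippocampus and cortex conditioned 6 h libraries, against 40.9 and 84.3 CPM in the hippocampus and cortex control 6 h libraries. The 1 h values were 95.3 and 96.7 CPM in the conditioned pair, and 105.8 and 88.0 CPM in the hippocampus and cortex controls. Both conditioned 6 h libraries were above both control 6 h libraries, and the hippocampus control 6 h library, with 74 counts, was the lowest of all. With 2 libraries on each side such an order is common by chance, and the share of all rows that show it was not counted. The conditioned-to-control ratio at 6 h was 2.63 in hippocampus (95% exact interval 2.05 to 3.41) and 1.40 in cortex (1.23 to 1.58); these intervals, like all of single libraries here, cover counting error only. Over both tissues the log2 change with training at 6 h was 0.86 (SE 0.41), which did not pass the test (edgeR, unadjusted p 0.0469, adjusted p 0.928). At 1 h the log2 change was 0.01 (SE 0.49).

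Hsp90b1 encodes GRP94, the ER member of the Hsp90 family, which works beside BiP on a narrower set of clients. It had 340.2 and 382.5 CPM in the hippocampus and cortex conditioned 6 h libraries, against 456.4 and 302.7 CPM in the hippocampus and cortex controls at 6 h. At 1 h it had 155.9 and 149.0 CPM in the conditioned pair, and 151.0 and 118.7 CPM in the hippocampus and cortex controls. All 4 values at 6 h were above all 4 at 1 h. Of all rows, 22% had every 6 h library above every 1 h sample. The mean of Hsp90b1 was 370 ± 65.9 CPM at 6 h (SD, n = 4) and 141 ± 19.1 CPM at 1 h (SD, n = 3, the pair counted once). Conditioned and control libraries overlapped at 6 h, and the tissues gave opposite ratios: 0.745 (0.684 to 0.813) in hippocampus and 1.26 (1.18 to 1.35) in cortex. The log2 change with training at 6 h was -0.06 (SE 0.38, adjusted p 0.984).

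Across the controls, Hsp90b1 rose at 6 h relative to 1 h, by 1.57 on the log2 scale (SE 0.39, edgeR adjusted p 0.0128). It was the only one of the 10 members to pass in that comparison, in which 20.7% of all rows passed, 12% higher at 6 h and 8.65% lower. These were 2045 and 1470 rows, and with upper-quartile factors 1303 and 1359. The rise was seen in both tissues, 3.02-fold in hippocampus controls (2.72 to 3.35) and 2.55-fold in cortex controls (2.295 to 2.84). Without the hippocampus control 6 h library it was 1.21 with an adjusted p of 0.0328. The call was lost without the cortex control 1 h library (log2 change 1.53, adjusted p 0.204) and without the hippocampus control 1 h library (1.58, adjusted p 0.257). It was also lost once a trend of change with GC content and transcript length was removed (0.73, adjusted p 0.16).

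The BiP and GRP94 messages stood in a different ratio at the later time. The ratio of Hsp90b1 counts to Hspa5 counts, not divided by length, was 3.16 and 3.25 in the hippocampus and cortex conditioned 6 h libraries and 11.1 and 3.59 in the controls at 6 h. In the 4 libraries taken at 1 h it lay between 1.35 and 1.64. All 4 of the 6 h libraries were above all of the 1 h libraries. The same separation was seen for Pdia3 over Pdia4, at 3.90 to 5.93 in the 6 h libraries and 1.94 to 2.95 in the 1 h libraries. Canx over Calr lay between 1.37 and 2.46 at 6 h and between 0.905 and 1.17 at 1 h. In each ratio the gene on top has the lower GC content. The share of all gene pairs that separate in this way was not counted, and no test was run on these ratios.

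Over all 6 h libraries and 1 h samples, training aside, Hsp90b1, Canx, Pdia3 and Atf6 did not overlap between the times and were higher at 6 h, as were 22% of all rows. Xbp1 and Atf4 did not overlap and were lower at 6 h, as were 22.9% of all rows. For Atf4 this rests on the conditioned 1 h pair being taken as 1 sample, at 57.7 CPM, just above the highest 6 h library at 56.2 CPM. The mean of Atf6, the ER membrane sensor, was 125 ± 19.9 CPM at 6 h and 71.1 ± 5.95 CPM at 1 h, and that of Xbp1, the message spliced by IRE1, was 22.8 ± 3.42 CPM at 6 h and 45.0 ± 4.07 CPM at 1 h (SD, n = 4 and n = 3). The 6 h mean was the lower one for Atf4, the factor of the eIF2α branch, at 37.7 ± 19.8 CPM against 76.5 ± 22.8 CPM at 1 h.

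Within the controls alone the log2 change from edgeR, 6 h over 1 h, was -1.49 for Atf4 (SE 0.53, adjusted p 0.0534), 1.04 for Atf6 (SE 0.38, adjusted p 0.0591) and -0.94 for Xbp1 (SE 0.41, adjusted p 0.103), and none of these passed. For Atf4 the ratio of single libraries was 0.103 (0.0616 to 0.163) in hippocampus controls and 0.803 (0.678 to 0.951) in cortex controls. Without the hippocampus control 6 h library its change came to -0.56 (adjusted p 0.458). DESeq2 called Atf4 (-1.57, adjusted p 0.032), and limma-voom called Atf4 (-1.47, adjusted p 0.0476) and Atf6 (1.03, adjusted p 0.0466), both beside Hsp90b1. Atf6 was higher and Xbp1 lower at 6 h in the controls of both tissues, by ratios of 2.08 and 1.80 for Atf6 in hippocampus and cortex, and of 0.422 and 0.557 for Xbp1. Of the 10 members, 5 had a positive and 5 a negative change, with a median of -0.05, against -0.04 over all rows.

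**Figure D2:**
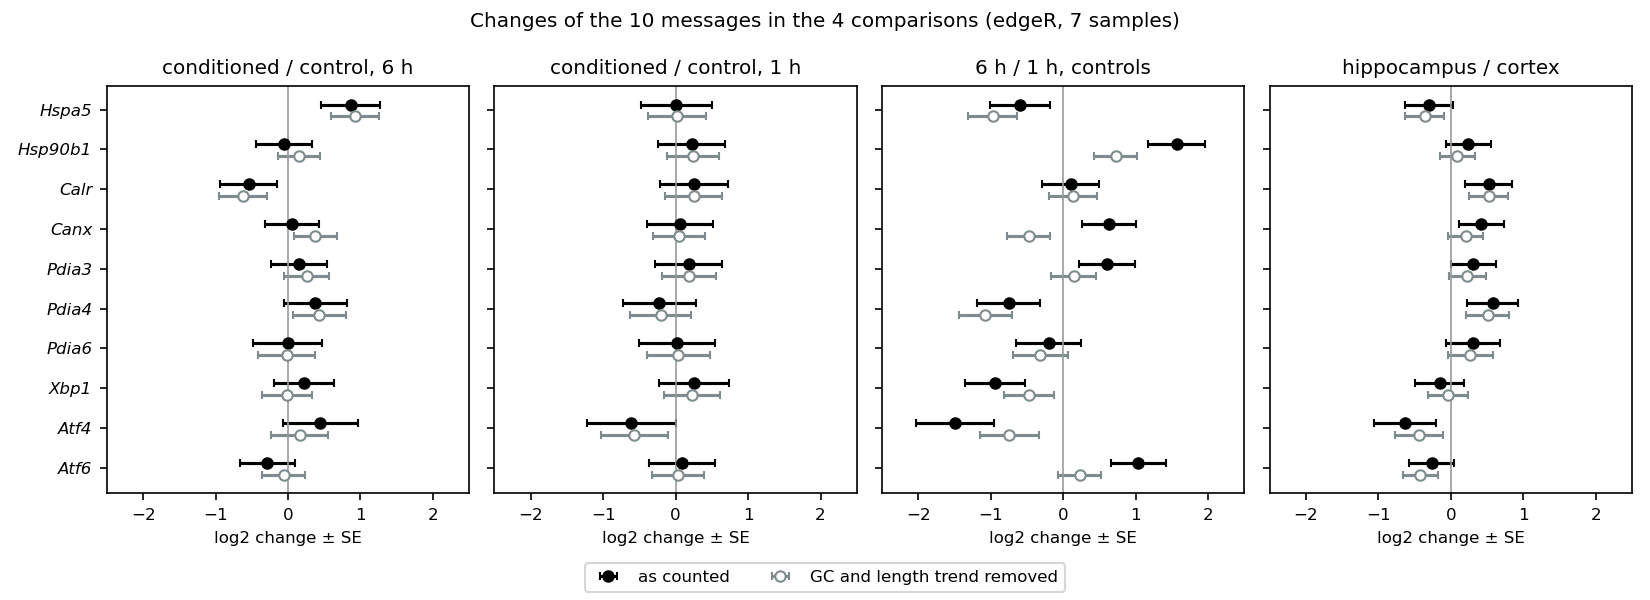
Log2 change ± SE of each of the 10 messages in 4 comparisons (edgeR, 7 samples), with filled points for the counts as deposited and open points after a trend with GC content and length was removed. In the filled points only Hsp90b1 in 6 h over 1 h controls passes the test, and in the open points none does.

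The calnexin cycle holds newly made glycoproteins in the ER until they fold, through the lectins calreticulin (Calr, soluble) and calnexin (Canx, in the membrane) and the thiol oxidoreductase ERp57 (Pdia3). Calr had 102.8 and 74.0 CPM in the hippocampus and cortex conditioned 6 h libraries, against 179.2 and 84.7 CPM in the hippocampus and cortex controls at 6 h. It was lower in the conditioned library of both tissues, with ratios of 0.574 (0.496 to 0.664) in hippocampus and 0.873 (0.760 to 1.00) in cortex, and the log2 change over both was -0.54 (SE 0.40, adjusted p 0.928). At 1 h Calr lay between 119.5 and 151.9 CPM in the 4 libraries. Canx had 228.8 and 182.3 CPM in the hippocampus and cortex conditioned 6 h libraries, against 246.2 and 151.6 CPM in the controls at 6 h, and 120.3 to 145.7 CPM in the 1 h libraries. Its ratio at 6 h was 0.930 (0.830 to 1.04) in hippocampus and 1.202 (1.09 to 1.32) in cortex, so that the groups overlapped.

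Pdia3 had 93.4 and 81.4 CPM in the hippocampus and cortex conditioned 6 h libraries, against 96.8 and 61.3 CPM in the controls at 6 h. All 4 values were above the 1 h range of 51.4 to 60.0 CPM. Canx and Pdia3 were higher at 6 h in the controls of both tissues, with ratios of 1.69 and 1.73 in hippocampus and 1.26 and 1.19 in cortex, yet their log2 changes of 0.63 (SE 0.38, adjusted p 0.225) and 0.61 (SE 0.39, adjusted p 0.255) did not pass. The change of Canx turned to -0.48 once the GC and length trend was removed, and that of Pdia3 came to 0.15. Calr, with the higher GC content, had ratios on either side of 1, 1.44 (1.25 to 1.66) in hippocampus controls and 0.709 (0.621 to 0.810) in cortex controls.

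Pdia4 (ERp72) and Pdia6 (P5) are protein disulfide isomerases that associate with BiP. They were the least abundant members per length, with 30 to 124 counts for Pdia4 and 49 to 117 for Pdia6 in a library. Pdia4 had 23.9 and 13.7 CPM in the hippocampus and cortex conditioned 6 h libraries, against 16.6 and 11.5 CPM in the controls at 6 h, and 19.9 to 28.8 CPM at 1 h. Within each tissue the conditioned 6 h library was the higher, but both intervals of the ratio include 1, at 0.952 to 2.24 in hippocampus and 0.835 to 1.702 in cortex. Pdia6 went opposite ways in the tissues, at 17.02 CPM in the hippocampus conditioned library against 27.1 CPM in its control, and 21.7 CPM in the cortex conditioned library against 13.8 CPM in its control. The ratios were 0.628 (0.432 to 0.920) and 1.57 (1.16 to 2.14), and the term for training by tissue at 6 h was -1.01 (SE 0.84, adjusted p 1). That term sets the tissue difference of the conditioned 6 h libraries against the one pooled over controls of both times.

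Of the transcription factors, Atf4 varied most, by a factor of 9.69 over the 7 samples. It had 36.8 and 47.5 CPM in the hippocampus and cortex conditioned 6 h libraries, against 10.5 and 56.2 CPM in the hippocampus and cortex controls at 6 h. The 1 h values were 53.6 and 61.9 CPM in the conditioned pair, and 101.8 and 70.0 CPM in the hippocampus and cortex controls. The hippocampus held both the highest value, in the 1 h control, and the lowest, in the 6 h control, where the level rests on 19 counts. Its conditioned-to-control ratio at 6 h was 3.501 (2.17 to 5.97) in hippocampus and 0.845 (0.712 to 1.00) in cortex, and the log2 change over both was 0.45 (SE 0.52, adjusted p 0.930). The term for training by time was 1.06 (SE 0.81, adjusted p 1).

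Xbp1 and Atf6 did not overlap between the times, beside 22.9% of all rows lower and 22% higher at 6 h without overlap. Xbp1 had 25.1 and 24.2 CPM in the hippocampus and cortex conditioned 6 h libraries, against 17.7 and 24.2 CPM in the controls at 6 h. At 1 h it had 51.6 and 47.7 CPM in the conditioned pair, and 42.0 and 43.5 CPM in the hippocampus and cortex controls. Atf6 had 94.99 and 133.1 CPM in the hippocampus and cortex conditioned 6 h libraries, against 134.4 and 136.7 CPM in the controls at 6 h, and 64.5 to 76.0 CPM in the 1 h libraries. The conditioned-to-control ratio at 6 h was 1.42 (0.947 to 2.17) in hippocampus and 1.00 in cortex for Xbp1, and 0.707 (0.602 to 0.831) in hippocampus and 0.974 (0.876 to 1.08) in cortex for Atf6. The ratio of Atf6 counts to Atf4 counts was 2.43 or more in each 6 h library and 1.34 or less in each 1 h library. Like the ratios above it has the gene of lower GC content on top, and it was not tested.

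No member passed the training comparison at 6 h (edgeR, adjusted p 0.928 to 0.999). Training at 6 h called 0 of 16990 rows, or 0%, with 642 at an unadjusted p under 0.05, and DESeq2 and limma-voom also called 0. Of the 10 members, 6 had a positive and 4 a negative log2 change, with a median of 0.11, against 0.02 over all rows, and Hspa5 alone was under an unadjusted p of 0.05. Leaving out the cortex control 6 h library made 2036 rows pass, among them Hspa5 (1.44, SE 0.45, adjusted p 0.0197) and Atf4 (2.004, SE 0.55, adjusted p 0.00684). In that case the hippocampus library is the lone 6 h control. Leaving out the hippocampus control 6 h library instead gave 0.38 for Hspa5 and -0.46 for Atf4, and called neither.

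At 1 h, training called no member and 0% of all rows (edgeR; 48 of 16990 rows at an unadjusted p under 0.05, and 0 calls by DESeq2 and limma-voom). The conditioned side here is 1 sample, the summed pair, which is assumed to vary like the others. The log2 changes of the members lay between -0.61 for Atf4 (SE 0.62) and 0.25 for Calr (SE 0.47), every adjusted p was 1, and the median was 0.07, against 0.01 over all rows. The terms for training by time and for training by tissue at 6 h called 0 rows each, with 73 and 495 rows at an unadjusted p under 0.05. No member was under an unadjusted p of 0.05 in either. With the GC and length trend removed, 0.00606% of rows passed for training by time. The Hspa5 term for training by time was 0.85 (SE 0.64).

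**Figure D3:**
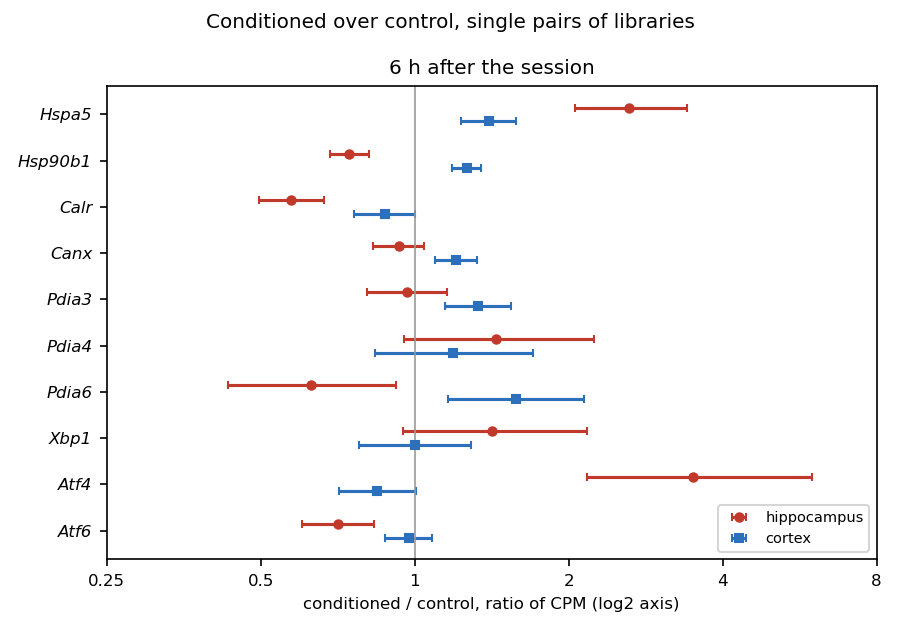
Ratio of conditioned to control CPM at 6 h for each of the 10 messages in hippocampus and cortex (log2 axis), each point being 1 library over 1 library with its 95% exact counting interval. Hspa5 is above 1 in both tissues, and Atf4, Hsp90b1, Canx, Pdia3 and Pdia6 lie on opposite sides of 1.

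No member passed the comparison of hippocampus with cortex (edgeR, adjusted p 0.555 to 0.907; no unadjusted p under 0.05), in which 3.17% of all rows passed, 1.5% higher and 1.67% lower, or 6.4% with the GC and length trend removed. The highest log2 changes, hippocampus over cortex, were 0.58 (SE 0.35) for Pdia4, 0.52 (SE 0.32) for Calr and 0.42 (SE 0.31) for Canx, and the lowest was -0.63 (SE 0.43) for Atf4. The median of the members was 0.27, against 0.01 over all rows.

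The change with time in controls ran with the GC content of the transcript over the whole table. Its median was 1.56 for genes of at most 40% GC, 0.62 for genes of 44% to 48%, -0.64 for genes of 52% to 56% and -1.196 above that. The members span this range: Canx has 42.2% GC, Hsp90b1 43.8%, Atf6 46.0%, Pdia3 46.9%, Hspa5 47.3%, Pdia4 47.6%, Pdia6 48.9%, Calr 50%, Xbp1 53.0% and Atf4 54.1%. The 4 genes with the highest changes are the 4 lowest in GC content, and the 2 lowest changes belong to the 2 highest. Hspa5 and Pdia4 had negative changes in a range of GC content whose median was positive. With the trend removed, no member and 5.15% of rows passed, the median of the members was -0.39, and the lowest values were -1.08 (SE 0.37, adjusted p 0.0884) for Pdia4 and -0.97 (SE 0.34, adjusted p 0.0964) for Hspa5. The part of GC content in these changes was not tested beyond this. Upper-quartile scaling moved the median of all rows in this comparison by -0.15, and the change of Calr then turned to -0.06.

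**Figure D4:**
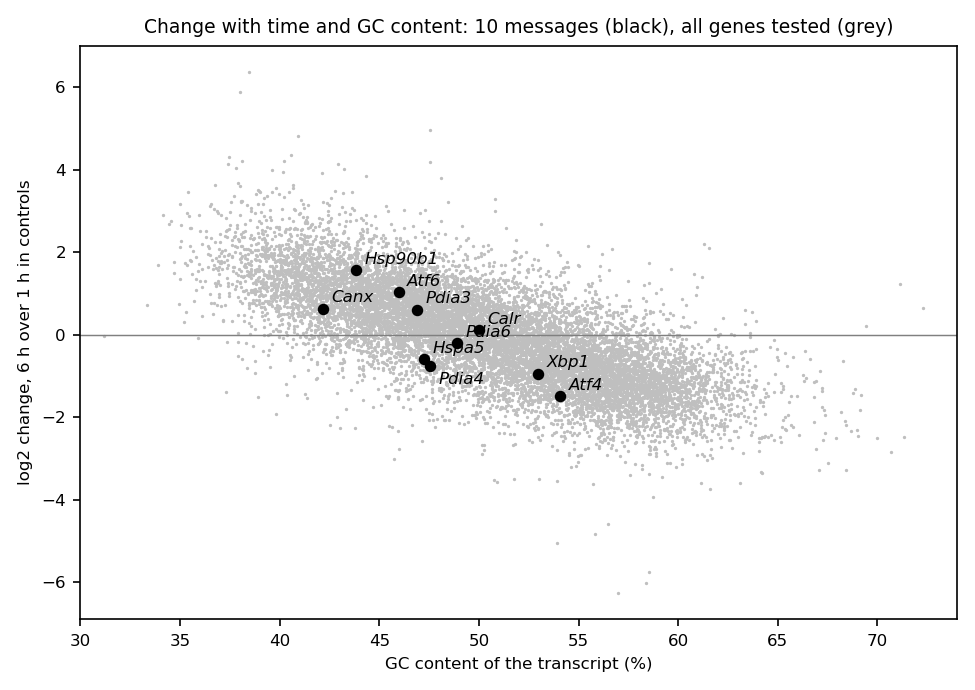
Log2 change in controls, 6 h over 1 h, against the GC content of the transcript, with all genes tested in grey and the 10 messages in black. Changes fall as GC content rises, and Hsp90b1, Atf6, Canx and Pdia3 lie at the upper left while Xbp1 and Atf4 lie at the lower right.

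The wider ER machinery was described by 7 gene lists, and beside them 11.6% of all genes were higher at 6 h in controls and 9.17% lower. Of 17 genes of the ER Hsp70 and Hsp90 system, 4 rose and 1 fell. Beside Hsp90b1 these were Sec63, a J-domain partner of BiP at the translocon (1.85, SE 0.43, adjusted p 0.00909), Dnajb9, another J-domain protein (1.60, adjusted p 0.0261), Dnajc3 (1.32, adjusted p 0.0426), and Sdf2, which fell (-1.54, adjusted p 0.0424). The median of this list was 0.82, against -0.06 over all genes, and 0.26 with the GC and length trend removed. Sec63 had 49.7 and 50.1 CPM in the hippocampus and cortex conditioned 6 h libraries and 92.4 and 48.03 CPM in the controls at 6 h, all above the 16.96 to 23.0 CPM of the 1 h libraries. Hspa5 itself had a change of -0.60 (SE 0.41, adjusted p 0.292).

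In the calnexin cycle, 0 of 12 genes rose and 2 fell, Mogs (-2.08) and Prkcsh (-1.89), whose products trim glucose from new glycans. In the hippocampus control 6 h library Mogs had 1 count and Prkcsh 4. The median of this list was 0.20, and -0.21 with the GC and length trend removed. Among 17 disulfide isomerases and oxidases, Tmx3 rose (1.75) and none fell; with the GC and length trend removed its change was -0.20 (adjusted p 0.82). Of 9 sensors and proteases of the unfolded protein response, Atf6b, the paralog of Atf6, fell (-2.06, SE 0.63, adjusted p 0.0303), while Atf6 had a change of 1.04 (SE 0.38, adjusted p 0.0591). Atf6b had 20.7 and 7.25 CPM in the hippocampus and cortex conditioned 6 h libraries, against 1.11 and 9.45 CPM in the controls at 6 h and 26.4 to 30.1 CPM in the 1 h libraries. The hippocampus control 6 h value rests on 2 counts.

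Of 16 factors and targets of the integrated stress response, 4 rose and 1 fell. Most of the list went the other way, with 6 positive and 10 negative changes. Its median was -0.57, against -0.06 over all genes, and 0.16 with the GC and length trend removed. The rises included Eif2ak2, the kinase PKR (2.25), Eif2s1, the eIF2α subunit (1.88), and Cebpg, a dimer partner of ATF4 (1.61). Eif2ak2 had only 4 and 3 counts in the cortex and hippocampus controls at 1 h, and 23 and 7 at 6 h. The fall was Atf5 (-1.78), with 2 counts in the hippocampus control 6 h library. ER-associated degradation, which removes misfolded proteins to the proteasome, had 2 rises and 3 falls among 24 genes: Erlec1 (2.05), Ubxn4 (1.89), Herpud1 (-1.97), Aup1 (-1.71) and Ube2g2 (-1.52). The translocon and signal peptidase list had 4 rises and no fall among 24 genes, led by Sec63, Sec62 (1.60) and Ssr3 (1.19). Yet 15 of its changes were negative and 9 positive, with a median of -0.23, against -0.06 over all genes. With the GC and length trend removed this list had no rise and 1 fall, with 0.79 for Sec63, 0.52 for Sec62 and -0.0083 for Ssr3.

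With the GC and length trend removed, Ubxn4 (1.21, adjusted p 0.0431) and Herpud1 (-1.51, adjusted p 0.0408) passed as before. Of the list genes that had not passed, 3 were then called lower, Erp29 (-1.80, adjusted p 0.0185), Sec61a2 (-1.53, adjusted p 0.0374) and Asns (-1.11, adjusted p 0.0472). The 7 lists then held 1 rise and 4 falls, in a fit in which 5.15% of all rows passed. Herpud1, a stress-inducible organiser of the degradation complex, had 7.82 and 10.1 CPM in the hippocampus and cortex conditioned 6 h libraries, against 2.77 and 7.56 CPM in the controls at 6 h. Its 1 h libraries had 16.7 to 26.5 CPM, all above the 6 h libraries. Ubxn4 ran the other way, with 72.2 and 86.6 CPM in the hippocampus and cortex conditioned 6 h libraries, 208.6 and 75.8 CPM in the controls at 6 h, and 29.4 to 47.6 CPM at 1 h. In the counts as deposited, no gene of the 7 lists passed in either training comparison or between the tissues.

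**Figure D5:**
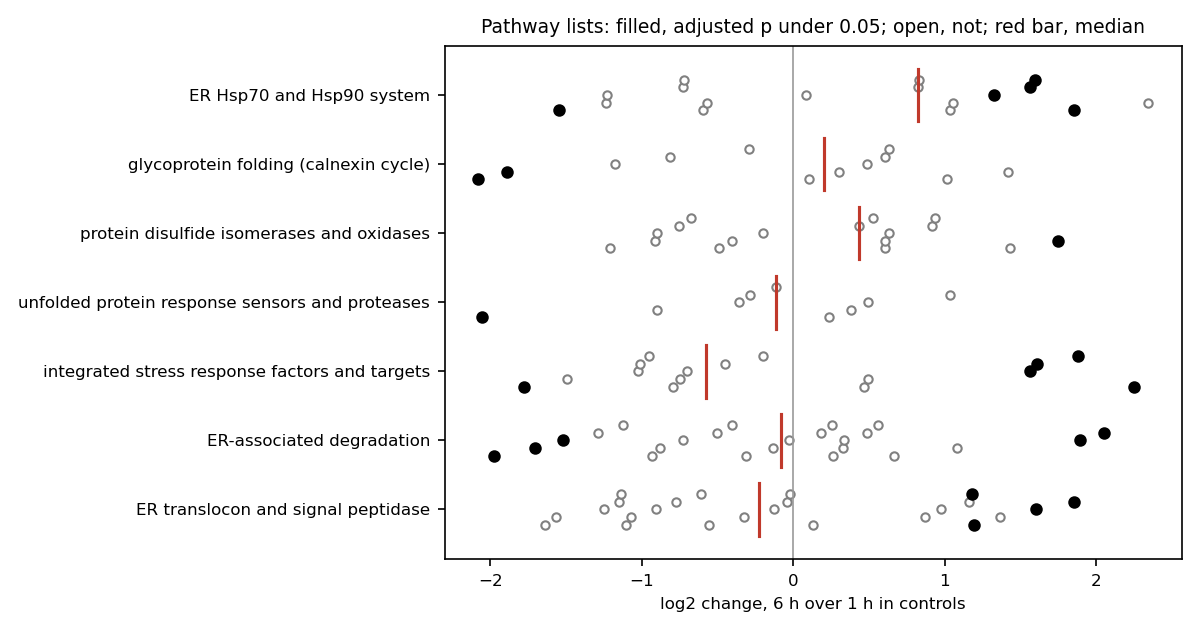
Log2 change in controls, 6 h over 1 h, of the genes of the 7 ER lists, each point being 1 gene. Points that passed the test occur on both sides of 0 in 3 of the lists, and 4 of 17 genes of the ER Hsp70 and Hsp90 system are among the rises.

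Some markers of cell types also differed with time in controls, beside 12% of all rows higher at 6 h and 8.65% lower. The summed level of 8 astrocyte markers was 1190 to 1560 CPM in the 6 h libraries and 867 to 1043 CPM in the 1 h libraries, with no marker at 0 in any library. That sum is mostly Slc1a2, with 28817 counts over all libraries, against 3798 for Slc1a3, the next. In the control comparison 1 of the 8 passed, as a rise, and the median log2 change of the 8 was -0.10. For 8 oligodendrocyte markers, 1 rose and 2 fell, and their sum was 694 to 1295 CPM at 6 h and 877 to 1464 CPM at 1 h. Of the 8 hippocampal and the 8 cortical excitatory neuron markers, 3 each rose with time in controls and none fell. No tested marker of striatal projection neurons, microglia, endothelial and mural cells or choroid plexus passed in that comparison. No marker of any of these lists passed in either training comparison. Their part in the changes of the ER genes was not tested.

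Among the genes whose pattern was most like that of Hspa5, by the root mean square difference of centred log2 CPM over the 7 samples among 6180 genes, were Ufd1 (0.11), Wdr45 (0.13), Ebna1bp2 (0.13) and Emc7 (0.14). The other 9 members ranked from 1550 (Xbp1) and 2176 (Pdia4) to 4261 (Calr) and 5218 (Hsp90b1), so that no other member was among the genes nearest to Hspa5. These ranks describe 7 samples that differ in depth, and carry no test.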

How the data were processed

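For 8 libraries the authors deposited raw whole-number counts of reads by RefSeq transcript in 1 table. Per the labels' protocols, ribosomal RNA was depleted from 200 ng RNA, cDNA synthesis used random hexamer and poly A primers, and SPIA and PCR followed, with no molecular identifiers named. CASAVA 1.7, TopHat 1.3.1, edgeR 2.612, limma 3.12.3 and mm9 are named, with no role, per the submitters' processing notes; the counting program, strand use and treatment of shared reads are points not given in the sources used here.

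Identifiers were matched to symbols for 27563 of 28157 rows through GRCm38 tables, and rows without a symbol, with 1.19% to 1.99% of a library's counts, stayed in the tests. The test was edgeR 4.0.16 (R 4.3.3; robust quasi-likelihood, TMM, default filter, threshold 0.05) on 7 samples, with terms for tissue and for the 4 combinations of training and time; the summed pair was coded midway between the tissues. Training by tissue left 1 residual degree of freedom. Alternatives were DESeq2 1.42.0, limma-voom (limma 3.58.1), upper-quartile factors, no filter, all rows of a gene summed, all 8 or only 6 libraries, each library left out, and removal of a spline trend with GC content and length; 2 combinations were added after the data were seen. The scripts were tested on simulated data. For training at 6 h they called 4% of 100 rows changed by 1 on the log2 scale, and 69% of 100 rows changed by 2. The absence of a call for training therefore does not exclude changes of about 1. The members, lists and alternatives were chosen with earlier results of these data known. Named were all members and, of each list and comparison, the largest 3 rises and 3 falls that passed; Dnajc3, Erp29, Sec61a2 and Asns were named after their values were seen, to complete counts, and the other promoter genes because they hold the element. Of the genes most like Hspa5, 4 of the nearest 5 are named, and the other one is not reported here.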

Additional observations from a re-analysis of the deposited data

Results flagged for a closer look

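The level of Xbp1 in the hippocampus control 6 h library, 17.7 CPM, stood apart from the other 6 h libraries, which lay between 24.2 and 25.1 CPM. On the log2 scale its gap to the nearest library was 0.899 of the range of the 4. This is the shallowest library, and the level rests on 32 counts. The level of Atf6 in the hippocampus conditioned 6 h library, 94.99 CPM, stood apart from the other 6 h libraries, which lay between 133.1 and 136.7 CPM, with a gap of 0.926 of the range on the log2 scale. It rests on 413 counts. Both gaps exceed Dixon's 95% critical value for 4 samples; 20 groups were tested, and chance flags about 1 in 20.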

How the results depend on the processing

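No paired analysis was possible because the labels carry no replicate numbers. Of the values recomputed for single members, 627 kept their direction and their side of the threshold, 54 turned round, 15 newly passed and 4 no longer passed; the cause was not tested. Members passing for time in controls numbered 2 with DESeq2, with no filter, with 8 libraries and with 6 libraries, 3 with limma-voom, and 0 with the GC and length trend removed, also without the hippocampus control 6 h library. Leaving out single libraries gave 0 to 4, the 4 without the cortex control 6 h library. Rows passing for time numbered 3515 and came to 850 with the trend removed, 1128 without the pair and the 6 h hippocampus control, 288 with the trend removed and without that library, and 10 to 6964 with single libraries left out, the 10 without the hippocampus control 1 h library. For tissue, 539 rows became 917 with no filter, 0 with 8 libraries as labelled, 1056 with the trend removed, 874 without the pair and the 6 h hippocampus control, 1373 with the trend removed and without that library, and 224 to 860 with single libraries left out. For training at 6 h, single libraries left out gave 0 to 2 members and 0 to 2036 rows, and removing the trend and the hippocampus control 6 h library gave 3 rows. For training at 1 h these gave 0 to 4 rows and 9 rows. Training by time had 1 row with the trend removed, and 0 to 1 members and 0 to 495 rows with single libraries left out, the highest of each without the cortex control 6 h library; training by tissue had 1 row with DESeq2. Values that turned round, none of which passed, were as follows. At 6 h, Pdia6 came to 0.025 with limma-voom, 0.045 with upper-quartile factors, 0.027 with no filter, 0.48 without the pair and the 6 h hippocampus control, and 0.52 with the trend and that library removed. Hsp90b1 came to 0.15 with the trend removed and to 0.21 and 0.26 under the same combinations, Atf4 to -0.47 and -0.45, and Xbp1 to -0.012 with the trend removed. With single libraries left out, training at 6 h ranged from -0.46 to 2.004 for Atf4, -0.17 to 0.28 for Canx, -0.38 to 0.25 for Hsp90b1, -0.12 to 0.43 for Pdia3 and -0.53 to 0.48 for Pdia6. At 1 h, Hspa5 came to -0.011 with DESeq2 and -0.026 with upper-quartile factors, and Pdia6 to -0.0015 and -0.0093; single libraries left out gave -1.39 to 0.37 for Atf4, -0.13 to 0.68 for Calr, -0.11 to 0.22 for Canx, -0.35 to 0.40 for Hspa5, -0.015 to 0.38 for Pdia3 and -0.14 to 0.12 for Pdia6. For time, Calr came to -0.060 with upper-quartile factors, -0.34 without the pair and the 6 h hippocampus control and -0.40 with the trend and that library removed, Canx to -0.48 with the trend removed and -0.45 without that library too, and Pdia3 to -0.060 there; single libraries left out gave -0.40 to 0.52 for Calr and -0.80 to 0.27 for Pdia6. For tissue, without the pair and the 6 h hippocampus control Hspa5 came to 0.0058, Pdia6 to -0.049 and Atf4 to 0.035, and with the trend and that library removed Pdia6 came to -0.078 and Atf4 to 0.035; single libraries left out gave -1.30 to 0.093 for Atf4, -0.56 to 0.063 for Hspa5 and -0.030 to 0.65 for Pdia6. Depth limits Atf4, Pdia4 and Xbp1 most, at 19, 30 and 32 counts in the hippocampus control 6 h library.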
